A study of Mus musculus with 31 samples.

Results

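Plasma carrier proteins and acute phase proteins are secreted by the liver into the blood, and 34 mouse genes that encode them were followed across 8 groups of liver samples. The members were named by gene, and where the array annotation gave several probe sets to 1 gene alone, the brightest on average over the 31 arrays was used. Of the 34 genes, 28 had such a probe set, out of 17097 genes in all. The other 6 (Ahsg, Gc, Orm1, Serpina3k, Serpina7 and A1bg) had no probe set in the annotation used and have no values here. From textbook knowledge, 19 members were placed among the constitutive carriers, of which 14 were measured, and 15 among the positive acute phase proteins, of which 14 were measured. All 28 measured genes passed the filter on low values in every fit. Alpha-fetoprotein (Afp), which the fetal liver makes in quantity, lay between 5 and 9 on all arrays against a table median of 5, while the other 27 measured members had mean intensities of 16 or more.

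Hepatocytes make most plasma proteins and pass them through the endoplasmic reticulum, where they fold and acquire sugars and disulphide bonds. During inflammation, interleukin-6 and interleukin-1 act on hepatocytes through STAT3, NF-kB and C/EBP factors, so that positive acute phase proteins such as serum amyloid A rise in plasma while albumin and transthyretin fall. IRE1, encoded by Ern1, is a sensor of misfolded protein in the endoplasmic reticulum membrane. It splices the mRNA of the transcription factor XBP1, and it can also cleave other mRNAs that encode secreted proteins.

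The study set out to separate mRNAs cut by IRE1 from genes controlled by XBP1, using total liver RNA of male mice in the fed state. In the Xbp1 experiment, Xbp1 ko mice (strain c57BL/6, 14 weeks old, n = 4) were compared with WT littermates of the same strain and age (n = 4). In the siRNA experiment all mice were Xbp1 ko (c57BL/6, 9 weeks old) and were injected with IRE1 siRNA (n = 4) or luciferase siRNA (n = 4) and examined at 8 days. The Ire1 experiment had 4 groups of 14-week-old mice: Ire1 ko given tunicamycin (2 mg/kg for 6 h, n = 4), WT given the same (n = 4), untreated Ire1 ko (n = 3) and untreated WT littermates (n = 4). Tunicamycin blocks N-linked glycosylation and so loads the endoplasmic reticulum with misfolded protein. The untreated mice, not vehicle-injected ones, were the comparison for tunicamycin. The labels give the Ire1 ko mice a mixed strain and their WT controls c57BL/6, so strain and genotype cannot be told apart. The labels do not state the allele or the cell type in which either gene was deleted.

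Values are probe set intensities on a linear scale, with a lowest value of 3 on the table and the brightest value of an array between 9367 and 24483. Correlations between arrays of a group were 0.9719 to 0.9907. The targeted genes were checked first. Xbp1 was lower in Xbp1 ko, at 505, 404, 567 and 404, against 912, 807, 1140 and 916 in WT (log2 fold change -1.01, limma adjusted p = 0.00876). Ern1 measured 169, 184, 236 and 230 on arrays labelled IRE1 siRNA, against 21, 18, 23 and 35 on arrays labelled luciferase siRNA. The gene that the IRE1 siRNA should reduce was thus 8.63-fold higher on the arrays that carry its name, which goes against the labels (log2 fold change 3.11, limma adjusted p = 0.000754). All results of that experiment are therefore given for "arrays labelled" one way or the other, and each direction would turn round if the labels were exchanged. In untreated Ire1 ko livers Ern1 averaged 150.3 ± 2.52 (SD, n = 3), against 149.2 ± 36.6 in untreated WT livers (n = 4), and under tunicamycin it was higher in Ire1 ko, at 393, 467, 270 and 360, against 212, 304, 272 and 219 in WT (log2 fold change 0.55, limma adjusted p = 0.0371). That difference runs against the label. The labels do not say which exons were removed, so it is not known whether this probe set can report the knockout, and the groups are called Ire1 ko as the labels have them. Hepatocyte markers (Cps1, Apoa1, Cyp2e1 and others) were bright on every array, while adipocyte, cholangiocyte and lymphocyte markers averaged below 16 in every group.

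Promoter windows of 8 members are shown because their genes lie side by side or moved together on these arrays. The windows hold the 250 bases before the annotated start and come from RefSeq (build GRCm38.p6), written 5′ to 3′ on the gene's own strand. Capitals mark the matches of the motifs searched on both strands, which were the C/EBP motif TTGCNNAA, the STAT motif TTCNNNGAA, the NF-kB core (GGG and CC with any 5 bases between them), the HNF1 motif GTTAAT, the ACGTG core of XBP1 and ATF6 sites, and the ER stress response element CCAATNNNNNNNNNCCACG. Overlapping matches run together in 1 block of capitals. Saa1 (chr7:46742981-46743230, minus strand) and Saa2 (chr7:46751583-46751832, plus strand) are neighbours read in opposite directions, and their windows were identical at 238 of 251 aligned positions (94.8%). Lcn2 lies at chr2:32387740-32387989 on the minus strand. The pentraxin genes Crp (chr1:172697806-172698055, plus strand) and Apcs (chr1:172895055-172895304, minus strand) are also neighbours. Itih4 (chr14:30886226-30886475, plus strand), Itih3 (chr14:30923588-30923837, minus strand) and Itih1 (chr14:30943290-30943539, minus strand) follow each other on chromosome 14.
Saa1: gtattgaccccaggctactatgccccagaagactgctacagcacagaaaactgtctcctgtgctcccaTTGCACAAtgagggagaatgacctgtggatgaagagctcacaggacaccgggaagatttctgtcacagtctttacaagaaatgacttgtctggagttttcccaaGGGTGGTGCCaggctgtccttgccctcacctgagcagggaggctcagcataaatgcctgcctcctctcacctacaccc
Saa2: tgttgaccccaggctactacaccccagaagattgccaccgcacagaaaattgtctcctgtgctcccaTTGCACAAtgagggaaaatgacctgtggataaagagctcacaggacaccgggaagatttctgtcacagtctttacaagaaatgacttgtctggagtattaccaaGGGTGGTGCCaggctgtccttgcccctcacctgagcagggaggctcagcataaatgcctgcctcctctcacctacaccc
Lcn2: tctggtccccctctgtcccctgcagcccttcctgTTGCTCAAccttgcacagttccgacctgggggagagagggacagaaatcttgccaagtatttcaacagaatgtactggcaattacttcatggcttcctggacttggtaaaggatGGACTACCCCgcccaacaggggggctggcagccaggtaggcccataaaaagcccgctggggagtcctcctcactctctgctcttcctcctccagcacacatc
Crp: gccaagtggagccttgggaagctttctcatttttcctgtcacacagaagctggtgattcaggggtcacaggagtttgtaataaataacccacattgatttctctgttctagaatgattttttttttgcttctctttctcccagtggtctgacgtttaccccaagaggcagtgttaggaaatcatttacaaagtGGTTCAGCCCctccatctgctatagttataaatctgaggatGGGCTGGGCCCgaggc
Apcs: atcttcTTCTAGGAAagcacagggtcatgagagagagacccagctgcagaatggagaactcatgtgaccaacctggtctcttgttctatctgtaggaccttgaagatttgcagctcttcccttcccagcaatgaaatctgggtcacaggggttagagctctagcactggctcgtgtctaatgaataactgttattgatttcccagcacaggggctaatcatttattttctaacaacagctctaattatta
Itih4: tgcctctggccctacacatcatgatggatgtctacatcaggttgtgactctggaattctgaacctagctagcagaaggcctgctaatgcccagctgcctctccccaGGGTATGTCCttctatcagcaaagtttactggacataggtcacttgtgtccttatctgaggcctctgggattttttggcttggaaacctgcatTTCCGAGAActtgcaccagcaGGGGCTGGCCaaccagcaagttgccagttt
Itih3: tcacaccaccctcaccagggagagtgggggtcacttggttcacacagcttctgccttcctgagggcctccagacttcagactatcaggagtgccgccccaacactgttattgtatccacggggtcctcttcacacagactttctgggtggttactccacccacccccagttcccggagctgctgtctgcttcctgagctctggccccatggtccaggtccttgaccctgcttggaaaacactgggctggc
Itih1: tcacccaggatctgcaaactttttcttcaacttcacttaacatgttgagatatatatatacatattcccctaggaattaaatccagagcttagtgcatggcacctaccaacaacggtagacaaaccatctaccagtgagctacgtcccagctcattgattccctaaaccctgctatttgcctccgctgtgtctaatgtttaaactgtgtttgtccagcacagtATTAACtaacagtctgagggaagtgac

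RefSeq windows were given for 27 of the 34 members (31 windows, some genes having more than 1 start). The C/EBP motif was found in 15 of these 31 windows (48.4%), against 9.56% of the 32851 windows of all genes. Saa1, Saa2 and Lcn2 each held it, 182, 183 and 216 bases before the start, and so did Orm2, Cp, Hpx, Alb and Afp among others. The HNF1 motif stood in 9 of 31 member windows (29%), against 6.43% of all windows, and was seen in 7 carriers and in Cp, the carriers including Alb, Afp, Afm, Gc and Itih1. Matches of the STAT motif lay in 4 of 31 windows (12.9%), against 7.02%, and belonged to Itih4, Apcs, Agt and A1bg. The NF-kB core was as common in members (45.2%) as elsewhere (45.8%). The ACGTG core was found in 2 of 31 windows (6.45%), those of Rbp4 and A1bg, against 16.6% of all windows, and the ER stress response element in 0 of 31, against 0.113%. A match describes letters only and is not evidence of binding.

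**Figure D1:**
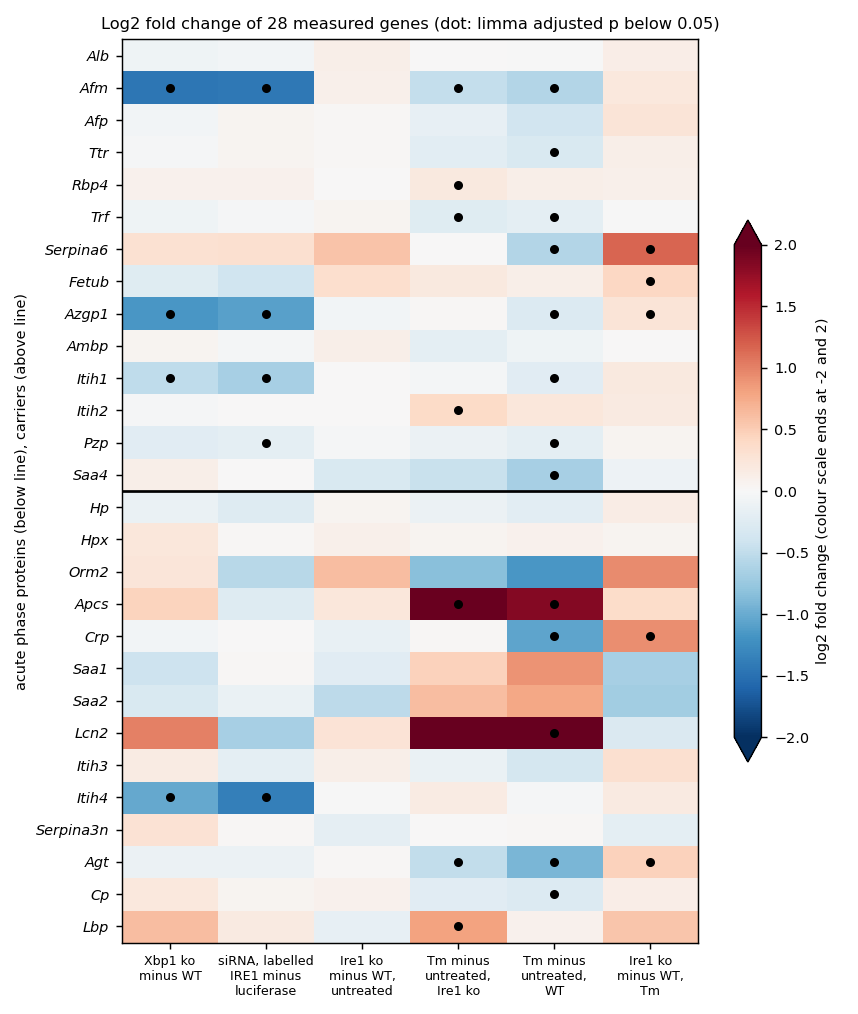
Log2 fold change of the 28 measured members (rows, carriers above the line and acute phase proteins below) in 6 comparisons (columns). Dots mark a limma adjusted p below 0.05 over all genes tested. Afm, Azgp1, Itih1 and Itih4 are blue and dotted in the first 2 columns, the column of untreated Ire1 ko against WT has no dot, and Apcs is red and dotted under tunicamycin in both genotypes.

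In the comparison of Xbp1 ko with WT, 4 plasma protein genes were lower. Afm (afamin, a vitamin E-binding member of the albumin family), Azgp1 (zinc-alpha-2-glycoprotein), Itih4 and Itih1 (heavy chains of the inter-alpha-trypsin inhibitor family) were lower in Xbp1 ko livers than in WT littermates. Lower calls were made for these 4 of 28 members, against 2.02% of the 14381 genes tested, and higher calls for 0 of 28, against 0.612% (2.63% of genes in either direction). By list, 3 of 14 carriers and 1 of 14 acute phase proteins were called. The median log2 fold change was -0.07 over carriers and 0.19 over acute phase proteins, beside 0.01 over all genes tested. Ern1 averaged 188.8 ± 12.7 in Xbp1 ko and 144.5 ± 12.4 in WT (SD, n = 4 each). Its part in the member results was not tested.

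Afm measured 243, 247, 332 and 238 in Xbp1 ko livers, against 772, 715, 691 and 691 in WT livers. All Xbp1 ko arrays lay below all WT arrays, a difference of 2.73-fold (log2 fold change -1.45, SE 0.11, limma adjusted p = 0.000411). Its chromosomal neighbour Afp stayed at the floor of the array, and albumin (Alb), the main carrier of fatty acids and the most abundant plasma protein, averaged 9354 ± 397 in Xbp1 ko, against 9979 ± 704 in WT (SD, n = 4 each), with overlapping arrays. Neither of these other members of the afamin gene family was called.

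Azgp1, a lipid-binding plasma glycoprotein, measured 1489, 1255, 1554 and 1605 in Xbp1 ko livers, against 3352, 3188, 3239 and 3322 in WT livers. The highest Xbp1 ko array was thus below the lowest WT array by a wide margin, and the difference was 2.23-fold (log2 fold change -1.16, SE 0.07, limma adjusted p = 0.000159).

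Itih4 measured 1853, 1052, 1306 and 1190 in Xbp1 ko livers, against 2975, 2442, 2525 and 2782 in WT livers. The groups did not overlap, though replicate 1 of Xbp1 ko stood nearest to WT (log2 fold change -1.02, SE 0.16, limma adjusted p = 0.0157). Without that array the change was -1.18 (adjusted p = 0.00274). The call was lost when replicate 3 or 4 of Xbp1 ko or replicate 1, 3 or 4 of WT was left out, with adjusted p of 0.0545 to 0.072 and changes of -1.05 to -0.97. Itih1 averaged 911.0 ± 93.9 in Xbp1 ko and 1298 ± 57.2 in WT (log2 fold change -0.51, SE 0.08, limma adjusted p = 0.0111). Itih3, which lies between these genes, was not called (log2 fold change 0.17, SE 0.15), nor was Itih2 on another chromosome (-0.02, SE 0.05). Ambp, which encodes the precursor of bikunin and alpha-1-microglobulin, had a log2 fold change of 0.05 (SE 0.07). Calls were thus made for the outer genes of the chromosome 14 cluster and not for the one between them. Whether these genes differ from each other was not tested.

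The other carriers had log2 fold changes between -0.25 (Fetub) and 0.31 (Serpina6), none of them called. Transthyretin (Ttr), which carries thyroxine and retinol-binding protein, measured 5938 ± 134 in Xbp1 ko and 6043 ± 75.5 in WT. Transferrin (Trf), the iron carrier, measured 5928 ± 437 in Xbp1 ko and 6239 ± 300 in WT. Pzp, a broad protease trap of the alpha-2-macroglobulin family, had a change of -0.23 (SE 0.07, adjusted p = 0.202) with groups that did not overlap, and was called lower in 1 fit over all arrays (adjusted p = 0.00514). Lbp, the lipopolysaccharide-binding protein, measured 585, 353, 460 and 349 in Xbp1 ko, against 328, 249, 262 and 281 in WT, and its groups did not overlap either (log2 fold change 0.62, SE 0.18, adjusted p = 0.161). Lbp was called higher under 2 other processing choices, at adjusted p of 0.0264 when only brighter genes were tested and 0.0258 when arrays were shifted to a common median. Haptoglobin (Hp), which binds free haemoglobin, had a change of -0.14 that became -0.26 (adjusted p = 0.0279) without replicate 1 of Xbp1 ko.

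**Figure D2:**
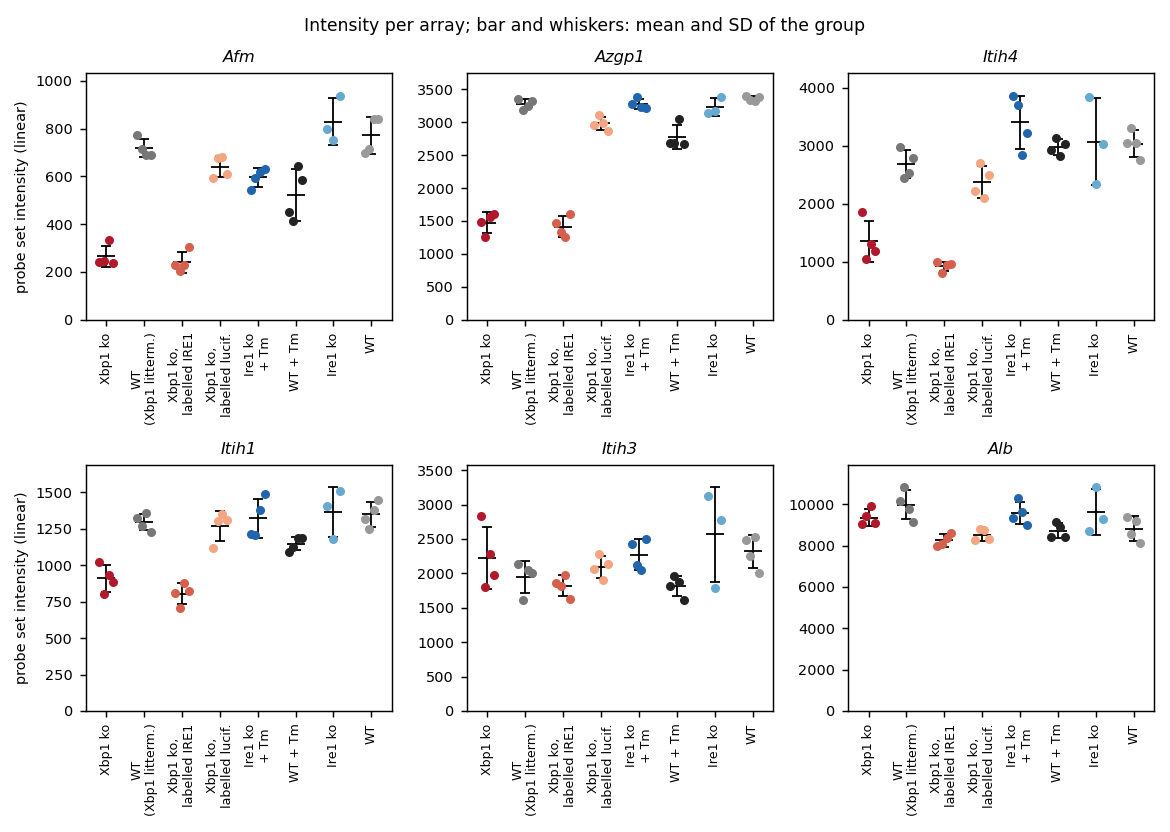
Probe set intensity (linear scale) of 6 members on each array of the 8 groups, with the mean and SD of each group as bar and whiskers. Afm, Azgp1, Itih4 and Itih1 lie lower in Xbp1 ko and on arrays labelled IRE1 siRNA than in their comparison groups, while Itih3 and Alb overlap.

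In the siRNA experiment, arrays labelled IRE1 siRNA showed low mRNA for the same 4 genes and for Pzp. These 5 of 28 members were called lower than on arrays labelled luciferase siRNA, against 1.14% of the 14030 genes tested, and 0 of 28 were called higher, against 0.649% (1.79% in either direction). Afm measured 228, 203, 229 and 304 on arrays labelled IRE1 siRNA, against 594, 675, 683 and 612 on arrays labelled luciferase siRNA (log2 fold change -1.43, SE 0.12, limma adjusted p = 0.00167). Azgp1 measured 1461, 1325, 1263 and 1609 on arrays labelled IRE1 siRNA, against 2956, 3104, 2993 and 2872 on arrays labelled luciferase siRNA (log2 fold change -1.08, SE 0.07, adjusted p = 0.000754). Both genes separated the groups completely.

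Itih4 measured 988, 802, 937 and 953 on arrays labelled IRE1 siRNA, against 2218, 2700, 2090 and 2502 on arrays labelled luciferase siRNA, a 2.58-fold difference (log2 fold change -1.37, SE 0.10, limma adjusted p = 0.000754). Every array labelled IRE1 siRNA lay below every array labelled luciferase siRNA. Itih1 averaged 805.2 ± 72.1 on arrays labelled IRE1 siRNA and 1272 ± 103 on arrays labelled luciferase siRNA (log2 fold change -0.66, SE 0.08, adjusted p = 0.00919). Pzp averaged 4468 ± 76.2 on arrays labelled IRE1 siRNA and 5115 ± 128 on arrays labelled luciferase siRNA, a small difference of 1.14-fold with a small spread (log2 fold change -0.20, SE 0.02, adjusted p = 0.00748). Itih3 had a change of -0.20 (SE 0.07, adjusted p = 0.247) with overlapping arrays, and Itih2 of -0.00 (SE 0.07). Fetub, a fetuin that inhibits an egg protease, had a change of -0.40 (adjusted p = 0.448). It became -0.62 (adjusted p = 0.0337) without replicate 3 labelled IRE1 siRNA, which measured 2022 against 1079 to 1184 on the other arrays of its group.

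These 2 experiments share no arrays. All 4 members called lower in Xbp1 ko were also called lower on arrays labelled IRE1 siRNA, which is 100% of the first list and 80% of the second. Among all genes tested in both experiments, 289 and 155 were called lower and 103 in both, which is 35.6% and 66.5% of these lists. These shares hold for the labels as given. With the siRNA labels exchanged, 0 of the 4 members and 0 of the 289 genes would be lower in both. The same 4 members and 103 genes would then be lower in Xbp1 ko and higher with IRE1 siRNA. Which labels are right was not tested by these counts. The mice of the siRNA experiment were all Xbp1 ko, and the Afm, Azgp1 and Itih4 levels on arrays labelled IRE1 siRNA (means of 241.0, 1414 and 920.0) stood beside those of Xbp1 ko mice in the Xbp1 experiment (265.0, 1476 and 1350). Arrays labelled luciferase siRNA had means of 641.0, 2981 and 2378 for these genes, beside the 717.2, 3275 and 2681 of WT. Levels are set across experiments here without a test, since it is not stated that the arrays were normalised together.

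A list of other acute phase and iron genes was read in the same comparisons. In Xbp1 ko, 2 of 16 tested genes of that list were lower, against 2.02% of all genes, Serping1 (the C1 inhibitor, log2 fold change -1.08, adjusted p = 0.000919) and Serpina1c (-0.53, adjusted p = 0.00638). On arrays labelled IRE1 siRNA, 5 of 16 were lower, against 1.14% of all genes, namely Serping1 (-1.31), C4b (-0.55), the fibrinogen chains Fgg (-0.47) and Fga (-0.40), and Serpina1a (-0.17). Of 32 tested regulators of the acute phase response, 1 was called in Xbp1 ko, against 2.63% of all genes in either direction, and this was Il1rap (an accessory chain of the interleukin-1 receptor, -0.85, adjusted p = 0.0371), and 0 on arrays labelled IRE1 siRNA, against 1.79%. At an unadjusted p below 0.05 in limma, 6 of 32 were higher there, against 9.87% of all genes, and 2 lower, against 4.93%.

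Hepatocyte markers were lower in the same groups. Their summed intensity over 10 genes ran from 26355 to 27322 in Xbp1 ko, against 30015 to 31517 in WT, and from 25571 to 27209 on arrays labelled IRE1 siRNA, against 29202 to 30894 on arrays labelled luciferase siRNA. In Xbp1 ko, 3 of 9 tested markers were called lower (Apoa1, Cyp2e1 and F2), against 2.02% of all genes. On arrays labelled IRE1 siRNA 2 of 9 were (Cyp2e1 and F2), against 1.14%. No marker of Kupffer or stellate cells was called in that experiment. All 10 Kupffer cell or macrophage markers had a log2 fold change above 0 there (median 0.32). Their sums overlapped, at 1507 to 2097 on arrays labelled IRE1 siRNA, against 1270 to 2043 on arrays labelled luciferase siRNA. Stellate cell or fibroblast markers summed to 832 to 1186 on arrays labelled IRE1 siRNA, against 731 to 814 on arrays labelled luciferase siRNA. The hepatocyte markers not called numbered 6 of 9 in Xbp1 ko and 7 of 9 in the siRNA experiment. In whole liver RNA, fewer hepatocytes, less RNA per hepatocyte and lower mRNA of single marker genes cannot be told apart. The part of these markers in the member results was not tested. Alb, Ttr and Trf, which hepatocytes also make, had log2 fold changes between -0.09 and 0.06 in both comparisons.

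Some acute phase genes differed widely between mice of 1 group. The list's median within-group SD, pooled over the 8 groups on the log2 scale, was 0.28 over 14 genes, against 0.10 over 13 carriers and 0.20 over 5834 genes of mean intensity 16 or more. The most variable members were Lcn2 (1.66), Saa2 (1.36), Orm2 (1.32) and Saa1 (1.30), all acute phase proteins, and at most 0.12% of the 5834 genes had a larger SD than any of these 4. The list was not uniform, since Hp, Crp, Hpx, Agt and Cp had SDs of 0.13 to 0.16, with 68.7% to 84.6% of those genes more variable. Trf and Rbp4, a carrier of retinol, were the steadiest (0.06 each), with 99.7% and 99.6% of those genes more variable. Among carriers the largest SDs were those of Saa4 (0.30) and Serpina6 (0.25). The difference between the lists was not tested.

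Saa1 and Saa2 encode apolipoproteins of high-density lipoprotein that rise most in inflammation, and their probe sets moved together from mouse to mouse. Saa1 measured 2811, 111, 487 and 211 in Xbp1 ko, against 912, 208, 600 and 904 in WT littermates. Saa2 measured 3220, 118, 385 and 244 in Xbp1 ko, against 1026, 176, 559 and 811 in WT. The order of the arrays was the same for both genes within Xbp1 ko, and replicate 1 stood far above the rest. The Saa2 probe set belongs to a class that can match more than 1 transcript, and as Saa1 and Saa2 are near-identical, signal of each may be read by the other. Neither was called in any comparison.

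Lcn2 encodes lipocalin 2, which keeps iron-laden siderophores from bacteria. It measured 620, 11, 90 and 15 in Xbp1 ko, against 49, 11, 27 and 38 in WT. The log2 fold change of 1.01 (SE 1.23, adjusted p = 0.774) rested on replicate 1, and without it the value was -0.15 (adjusted p = 0.953). Orm2, an alpha-1-acid glycoprotein, measured 310, 19, 39 and 18 in Xbp1 ko, against 40, 28, 47 and 40 in WT (0.24 with all arrays and -0.68 without replicate 1, adjusted p = 0.426).

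On several arrays most of the acute phase list stood high together. Replicate 1 of Xbp1 ko was the highest of its group for 13 of 14 acute phase members and for 6 of 13 carriers. Replicate 1 of untreated Ire1 ko was the highest for 13 of 14 acute phase members and for 5 of 13 carriers, with Agt the exception in both. Replicate 1 of the WT littermates of Xbp1 ko was highest for 11 of 14 and replicate 1 of treated Ire1 ko for 10 of 14, by smaller margins. The acute phase members lay a median of 0.41 above the group's mean on the log2 scale in replicate 1 of Xbp1 ko, 0.40 in that of untreated Ire1 ko, 0.12 in that of the WT littermates and 0.22 in that of treated Ire1 ko. Carriers lay 0.05, 0.03, 0.05 and -0.03 from it in these arrays. At the other end, replicate 4 of untreated WT was the lowest for 13 of 14 acute phase members, replicate 2 of untreated Ire1 ko for 12 and replicate 2 of the WT littermates of Xbp1 ko for 12.

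Markers of other cells stood high in replicate 1 of Xbp1 ko and of untreated Ire1 ko as well. Summed over 10 Kupffer cell or macrophage markers, replicate 1 of untreated Ire1 ko measured 2263, against 687 and 754 on the other arrays of its group, and replicate 1 of Xbp1 ko 2024, against 1033 to 1438. Neutrophil markers summed to 102 over 8 genes in replicate 1 of Xbp1 ko, against 40 to 45, and to 50 in replicate 1 of untreated Ire1 ko, against 37 and 39. Of these 8 genes, 1 averaged 16 or more in Xbp1 ko and 0 in untreated Ire1 ko, where the sums thus lay near the table floor. The part of these cell markers in the acute phase values was not tested. Without replicate 1 of Xbp1 ko the median acute phase change was -0.12 in place of 0.19, while that of the carriers was -0.07 either way. For untreated Ire1 ko against WT the acute phase median was 0.04 with all arrays and -0.18 without replicate 1, with 8 and 1 of 14 genes above 0.

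**Figure D3:**
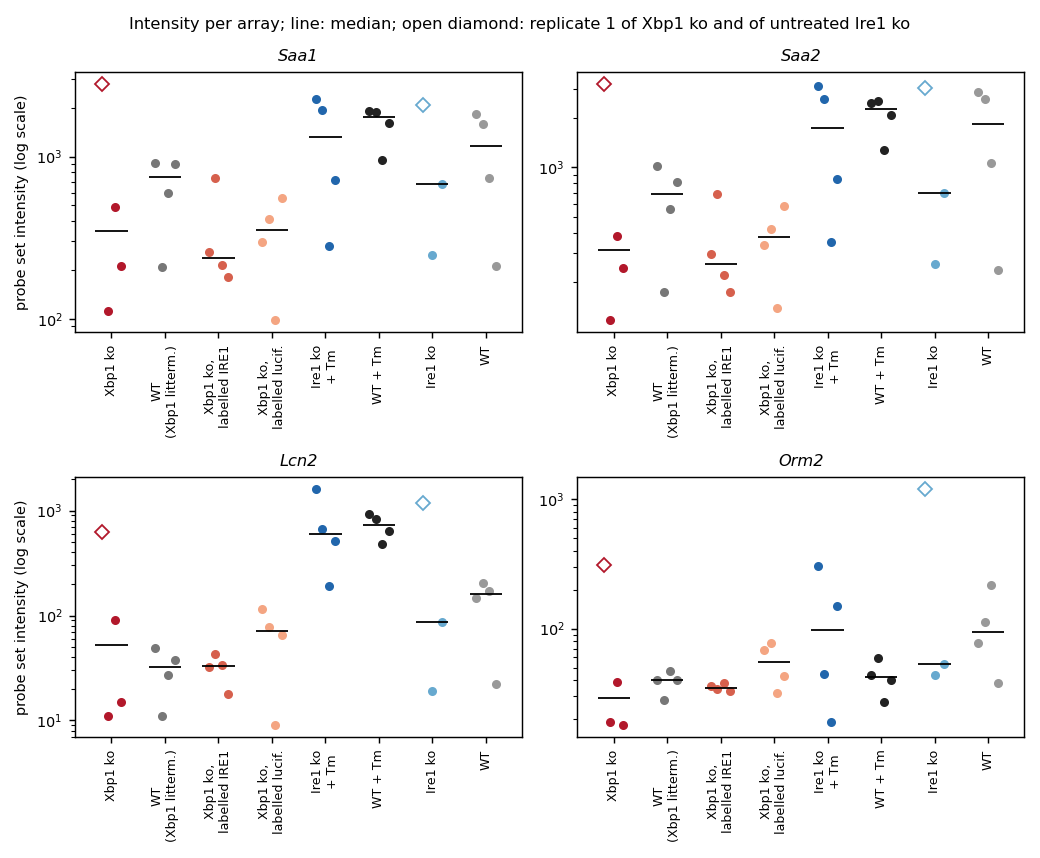
Probe set intensity (log scale) of the 4 most variable members on each array of the 8 groups, with each group's median as a line. Open diamonds are replicate 1 of Xbp1 ko and of untreated Ire1 ko, which lie above the other arrays of their groups for Saa1, Saa2, Lcn2 and Orm2.

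Without tunicamycin, no member passed the test between Ire1 ko and WT. By limma, 0 of 28 were called higher in Ire1 ko than in WT, against 0.0791% of 15172 genes tested, and 0 of 28 lower, against 0.863% (0.943% in either direction). At an unadjusted p below 0.05, 2 of 28 were higher, against 3.14% of all genes, and 0 lower, against 6.35%. Serpina6, the corticosteroid-binding globulin, measured 2108, 1534 and 1714 in untreated Ire1 ko, against 841, 1104, 1495 and 1453 in untreated WT. The groups did not overlap, but the difference did not pass over all genes (log2 fold change 0.57, SE 0.18, adjusted p = 0.207). Fetub had a change of 0.34 (SE 0.13, adjusted p = 0.429) with overlapping arrays. The genes that were lower in Xbp1 ko had changes of 0.10 (Afm), -0.06 (Azgp1), -0.01 (Itih4) and 0.01 (Itih1). The medians over carriers (0.02) and acute phase proteins (0.04) lay beside -0.03 over all genes. It rested on 3 Ire1 ko arrays, of which replicate 1 stood apart for the acute phase genes.

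Tunicamycin moved members in both directions within 6 h. Among the members, Apcs alone was called higher in both genotypes, Crp fell in WT, Agt fell in both, and several carriers fell by small amounts. In Ire1 ko livers 4 of 28 members were called higher, against 17.4% of the 15172 genes tested, and 3 of 28 lower, against 10.3% (27.7% in either direction). For WT livers the counts were 2 of 28 higher, against 18.5%, and 11 of 28 lower, against 17.6% (36.1% in either direction). Higher calls were thus no more frequent among members than among all genes, and lower calls in WT were 11 of 28 beside that 17.6%. By list in WT, 8 of 14 carriers were lower and 0 higher, with a median change of -0.21, while 3 of 14 acute phase proteins were lower and 2 higher, with a median of -0.00 beside -0.02 over all genes. In Ire1 ko, 2 carriers rose and 2 fell, with a median of -0.08, and 2 acute phase proteins rose and 1 fell, with a median of 0.03. Both genotypes were fitted together, but these contrasts share no arrays. Markers of several cell types were lower in treated WT as well. For hepatocytes 3 of 9 tested were called lower (Apoa1, Apob and Cyp2e1) and 1 higher (Tat), with a median of -0.15 and sums of 26271 to 27869 in treated WT, against 27807 to 30746 in untreated WT. Lower calls were also made for 3 of 6 endothelial markers, 2 of 8 stellate cell or fibroblast markers and 3 of 10 Kupffer cell or macrophage markers. The endothelial marker Lyve1 was called higher (0.88), and 1 Kupffer cell or macrophage marker had a change of 1.02 without a call. In Ire1 ko, 1 of 9 hepatocyte markers was lower and 1 higher. Their part in the carrier values was not tested.

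The pentraxins Apcs and Crp are neighbouring genes whose products bind bacteria and dying cells, and in mice Apcs is the stronger acute phase reactant. Apcs measured 4125, 4224, 3341 and 3630 in Ire1 ko livers given tunicamycin, against 1617, 362 and 1528 in untreated Ire1 ko livers. In WT livers it measured 3288, 2632, 3418 and 2574 with tunicamycin, against 872, 1171, 857 and 529 without. All treated arrays lay above all untreated arrays in both genotypes, with changes of 3.96-fold in Ire1 ko (log2 fold change 1.98, SE 0.38, limma adjusted p = 0.000831) and 3.58-fold in WT (1.84, SE 0.35, adjusted p = 0.000503). The difference between these responses was 0.14 (SE 0.52, adjusted p = 0.924).

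Crp measured 1560, 1782, 1240 and 1132 in Ire1 ko livers given tunicamycin, against 1444, 1396 and 1321 in untreated Ire1 ko livers. In WT livers it measured 831, 624, 839 and 688 with tunicamycin, against 1515, 1643, 1538 and 1472 without. Treated WT arrays lay below all other arrays of the experiment, while the Ire1 ko groups overlapped. Crp fell 2.08-fold in WT (log2 fold change -1.06, SE 0.12, limma adjusted p = 3.47e-06) and had a change of 0.02 in Ire1 ko (SE 0.13, adjusted p = 0.933). The test of the difference passed (interaction 1.08, SE 0.18, adjusted p = 0.0013), with values of 1.11 (adjusted p = 0.00355) when replicate 1 of untreated Ire1 ko was left out. Under tunicamycin the neighbours Crp and Apcs thus went opposite ways in WT.

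Agt, the precursor of angiotensin, measured 860, 907, 808 and 931 in Ire1 ko livers given tunicamycin, against 1166, 1232 and 1300 in untreated ones, a fall of 1.41-fold (log2 fold change -0.49, SE 0.10, limma adjusted p = 0.00161). In WT livers it measured 585, 567, 778 and 630 with tunicamycin, against 1054, 1278, 1241 and 1260 without, a fall of 1.9-fold (-0.92, SE 0.10, adjusted p = 7.8e-07). Neither genotype had overlapping groups. The fall was not shown to differ between genotypes (interaction 0.43, SE 0.14, adjusted p = 0.0804). It was called different without replicate 1 of untreated WT (0.50, adjusted p = 0.0467) or without replicate 3 of treated WT (0.53, adjusted p = 0.0119), and also when only brighter genes were tested (adjusted p = 0.0409) or in 1 fit over all arrays (adjusted p = 0.0294).

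Among the iron and haem binders, Lcn2 had the largest fold change of any member under tunicamycin and the widest spread. It measured 1620, 674, 192 and 517 in treated Ire1 ko, against 1193, 19 and 86 in untreated Ire1 ko, and 935, 831, 486 and 639 in treated WT, against 148, 206, 172 and 22 in untreated WT. Every treated WT array lay above every untreated WT array, a change of 2.76 on the log2 scale (SE 0.99, limma adjusted p = 0.0382). The WT call was lost without replicate 1 or 4 of untreated WT or without any treated WT array, at adjusted p of 0.056 to 0.146. In Ire1 ko the change was 2.20 (SE 1.06, adjusted p = 0.151), and without replicate 1 of untreated Ire1 ko it was 3.83 (SE 0.87, adjusted p = 0.00419). Cp, the plasma ferroxidase, fell in WT (-0.27, SE 0.09, adjusted p = 0.0299). That call was lost with the mean of all its probe sets (-0.09, adjusted p = 0.656). That mean takes in a second probe set that averaged 5.32, near the table median of 5. The call was also lost on leaving out any of 6 arrays (adjusted p up to 0.0885, replicates 1 to 3 of untreated WT and 2 to 4 of treated WT). Trf fell by 0.25 in Ire1 ko (SE 0.04, adjusted p = 0.000395) and by 0.19 in WT (SE 0.04, adjusted p = 0.00105) on the log2 scale. Hp and the haem carrier Hpx were not called in either genotype, with changes between -0.21 and 0.09.

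Saa1 and Saa2 were not called, and their arrays lay wide apart under tunicamycin in Ire1 ko and closer together in WT. This difference in spread was not tested. Saa1 measured 2271, 1930, 282 and 713 in treated Ire1 ko, against 2089, 246 and 675 in untreated Ire1 ko, and 1904, 1883, 955 and 1603 in treated WT, against 1835, 1595, 739 and 212 in untreated WT. The highest Saa1 array was 8.05 times the lowest in treated Ire1 ko, against 8.49 times in untreated Ire1 ko, and 1.99 times in treated WT, against 8.66 times in untreated WT. The Saa1 groups overlapped in both genotypes, and its changes of 0.46 (SE 0.81) and 0.90 (SE 0.75) were not called. For Saa2 the highest array was 8.96 times the lowest in treated and 11.7 times in untreated Ire1 ko. It was 1.98 times in treated and 12.1 times in untreated WT. Saa4, the family member that is made without inflammation, fell in WT (log2 fold change -0.67, SE 0.21, limma adjusted p = 0.0188), at 1497, 1156, 985 and 1273 in treated WT, against 2575, 2562, 1405 and 1498 in untreated WT, and the groups overlapped. That call was lost without replicate 1 or 2 of untreated WT or replicate 3 of treated WT (adjusted p of 0.0701 to 0.0785).

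Several carriers fell under tunicamycin by less than 1 log2 unit. Afm measured 541, 594, 620 and 629 in treated Ire1 ko, against 798, 751 and 938 in untreated Ire1 ko (log2 fold change -0.47, SE 0.14, limma adjusted p = 0.016, and 0.0885 without replicate 3 of untreated Ire1 ko). It measured 452, 413, 643 and 586 in treated WT, against 696, 713, 839 and 840 in untreated WT (-0.58, SE 0.13, adjusted p = 0.00157). Afm thus fell in both genotypes with no overlap. In WT livers Ttr (-0.30), Azgp1 (-0.28), Itih1 (-0.23) and Pzp (-0.19) also fell, with adjusted p between 0.000199 and 0.0451. The Itih1 call was lost when any array but replicate 2 of untreated WT was left out (adjusted p of 0.058 to 0.125). Alb had changes of -0.00 (SE 0.07) in Ire1 ko and -0.01 (SE 0.07) in WT.

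In Ire1 ko livers 3 members rose that were not called in WT. Itih2, another inter-alpha-trypsin inhibitor heavy chain, averaged 1614 ± 143 in treated and 1247 ± 217 in untreated Ire1 ko (log2 fold change 0.38, SE 0.10, limma adjusted p = 0.00968), and without replicate 2 of untreated Ire1 ko, its lowest array at 1014, the change was 0.24 (adjusted p = 0.0671). Rbp4 averaged 4966 ± 110 in treated and 4323 ± 130 in untreated Ire1 ko (0.20, SE 0.06, adjusted p = 0.016, and 0.0638 without replicate 1 of untreated Ire1 ko). Lbp measured 782, 636, 342 and 429 in treated Ire1 ko, against 419, 221 and 286 in untreated Ire1 ko, with overlapping groups (0.80, SE 0.29, adjusted p = 0.0495, and up to 0.23 on leaving out replicate 1 or 2 of the treated or replicate 2 or 3 of the untreated Ire1 ko arrays). With arrays shifted to a common median of brighter probe sets these 3 calls were lost, and the median change of all genes in Ire1 ko was then -0.179. The same scaling gave 8 lower calls in Ire1 ko in place of 3. The matching changes in WT were 0.22, 0.11 and 0.08, and the tests of the difference gave adjusted p of 0.612, 0.624 and 0.347.

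**Figure D4:**
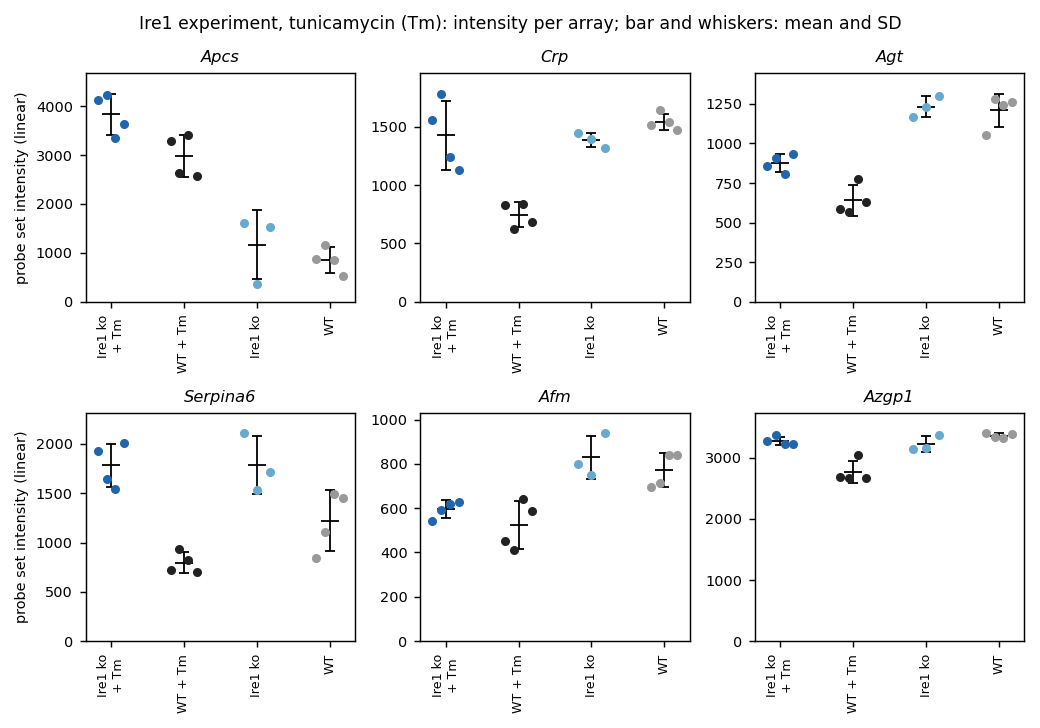
Probe set intensity (linear scale) of 6 members on each array of the Ire1 experiment, with the mean and SD of each group as bar and whiskers. Tm stands for tunicamycin. Apcs is higher with Tm in both genotypes, and Crp and Azgp1 are lower in WT with Tm than in the other 3 groups.

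Set against each other under tunicamycin, Ire1 ko livers had more mRNA of 5 of 28 members than WT livers, against 9.68% of all genes tested, and less of 0, against 8.5% (18.2% in either direction). Serpina6 measured 1932, 1642, 1547 and 2007 in treated Ire1 ko, against 722, 933, 822 and 706 in treated WT. The groups lay far apart, a 2.24-fold difference (log2 fold change 1.16, SE 0.16, limma adjusted p = 6.51e-05). Crp was 1.9-fold higher in treated Ire1 ko (0.93, SE 0.12, adjusted p = 4.61e-05) and Agt 1.38-fold (0.46, SE 0.10, adjusted p = 0.00225). Azgp1 averaged 3278 ± 71.7 in treated Ire1 ko and 2769 ± 181 in treated WT (0.25, SE 0.05, adjusted p = 0.00181). Fetub averaged 2508 ± 105 in treated Ire1 ko and 1884 ± 69.7 in treated WT (0.41, SE 0.12, adjusted p = 0.0289), a call lost on leaving out any 1 of the 8 arrays (adjusted p of 0.0503 to 0.0834).

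Whether the response to tunicamycin depended on genotype was tested by the interaction term. It was called for 2 of 28 members in the higher direction, against 3.58% of genes, and 0 of 28 in the lower direction, against 3.95% (7.53% in either direction). The genes called were Crp and Azgp1. Azgp1 had a change of 0.02 in Ire1 ko (SE 0.05) and of -0.28 in WT (SE 0.05), an interaction of 0.31 (SE 0.07, limma adjusted p = 0.0157). That call was lost without the intensity trend (adjusted p = 0.0862) and with a common median (0.25, adjusted p = 0.289). For Serpina6 the changes were 0.00 (SE 0.18) in Ire1 ko and -0.59 (SE 0.16, adjusted p = 0.00811) in WT, and the interaction of 0.59 did not pass (SE 0.24, adjusted p = 0.173). Without replicate 1 of untreated WT, its lowest untreated WT array at 841, the interaction was 0.76 (adjusted p = 0.0354). The Serpina6 difference of Ire1 ko against WT was 1.16 with tunicamycin and 0.57, not called, without it.

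**Figure D5:**
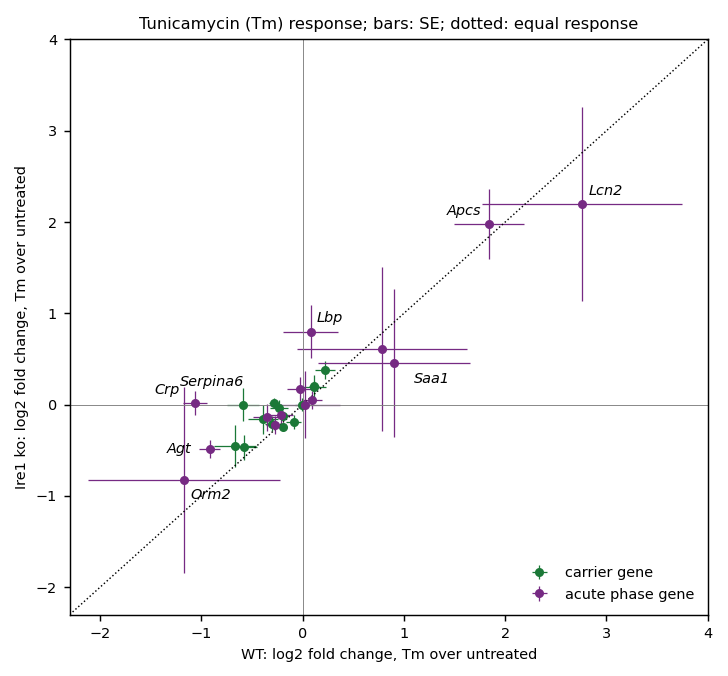
Log2 fold change under tunicamycin (Tm) in Ire1 ko (y axis) against that in WT (x axis) for the 28 measured members, with SE bars. The dotted line marks equal responses. Crp lies at 0.02 in Ire1 ko and -1.06 in WT, while Apcs and Lcn2 lie at the upper right near the line.

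Regulators of the acute phase response moved in both directions under tunicamycin. Of 33 tested regulators, 9 rose and 6 fell in Ire1 ko, and 6 rose and 13 fell in WT, against the shares of all genes given above. Cebpd, a C/EBP factor that inflammation induces, rose by 2.17 on the log2 scale in Ire1 ko and by 1.48 in WT. Cebpa, the C/EBP factor of resting hepatocytes, averaged 445.2 ± 49.8 in treated and 808.3 ± 116 in untreated Ire1 ko (log2 fold change -0.86), and 217.0 ± 65.5 in treated and 1098 ± 111 in untreated WT (-2.39). These Cebpa responses differed (interaction 1.54, SE 0.28, limma adjusted p = 0.00207), as did those of Cebpb (0.81, adjusted p = 0.00542), the hepatocyte factor genes Hnf4a (0.58, adjusted p = 0.00803) and Onecut1 (2.08, adjusted p = 0.000713), and the kinase gene Tyk2 (-1.38, adjusted p = 0.000587). Over all genes tested, the interaction was called higher for 3.58% and lower for 3.95%. Stat3, the transcription factor downstream of interleukin-6, fell by 1.47 in Ire1 ko and by 0.96 in WT on the log2 scale. Nfkbia, an inhibitor and target of NF-kB, fell by 0.99 in Ire1 ko and by 1.66 in WT.

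Other liver outputs of the acute phase moved in both directions as well. The hepcidin genes Hamp and Hamp2, which limit iron release, rose in Ire1 ko (1.39 and 2.01) and in WT (1.39 and 1.96). Mt1, a metallothionein, rose by 2.72 in Ire1 ko and by 2.45 in WT on the log2 scale. Hrg, a histidine-rich plasma glycoprotein, fell by 0.71 in Ire1 ko and by 0.91 in WT, and the complement gene C4b by 0.46 and 0.97. Of 16 tested genes of this list, 3 rose in Ire1 ko, against 17.4% of all genes, and 2 fell, against 10.3%. In WT 3 rose, against 18.5%, and 8 fell, against 17.6%. Kupffer cell markers summed to 735 to 1063 in treated Ire1 ko, against 687 to 2263 in untreated Ire1 ko, and to 498 to 682 in treated WT, against 702 to 1476 in untreated WT. Their part in the member values was not tested. Hepatocyte markers summed to 28092 to 31014 in treated Ire1 ko, against 26271 to 27869 in treated WT. Of 9 tested, 2 were called higher in Ire1 ko (Cyp2e1 and F2), against 9.68% of all genes. They stood beside the 5 member calls, and their part in those calls was not tested either.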

How the data were processed

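Liver RNA was hybridised to Affymetrix arrays, 1 array per mouse. The deposited values are probe set intensities on a linear scale, made by the authors with RMA in the affy package, per the submitters' processing notes; their versions, and whether all arrays were normalised together, are not given in the sources used here. Intensities were read as log2 values and tested with limma 3.58.1 in R 4.3.3 (lmFit, eBayes with an intensity trend), in 1 fit for each experiment. No column was left unmapped (0). Testing was limited to genes exceeding percentile 30 of the array's values on 3 or more arrays of an experiment, and p-values were Benjamini-Hochberg adjusted over all genes tested, with a threshold of 0.05. Genes named with array values were members called in any comparison with a change of at least 1 on the log2 scale, together with genes that a result turned on. The members and lists were chosen with earlier results of these data known. The number of arrays limits the precision. Nothing states how mice shared litters, cages or batches. The p-values set group differences against the spread between these samples and take the mice as independent. Shared litters, cages or batches could make them too small. Samples with the same replicate number were not treated as pairs. Their correlations of deviations from group means ran from -0.181 to 0.294. They were 0.02 to 0.269 between Xbp1 ko and WT, and -0.154 to 0.059 between the siRNA groups. Samples with different numbers were not set beside these, so pairing is not excluded. The fits for Xbp1, siRNA and untreated Ire1 were tested on simulated data: among genes of mean intensity 16 or more false calls stayed under the rate the threshold sets, but near the floor of the table, where values are whole numbers, they exceeded it in the Xbp1 and siRNA fits, which touches the shares of all genes called more than the members. The simulated noise was normal and independent between genes and arrays, so it does not cover single arrays on which many genes stand high together. Alternatives changed the filter, the normalization, the probe set rule, the pseudocount, the fit and the arrays included.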

Additional observations from a re-analysis of the deposited data

Results flagged for a closer look

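Single arrays stood far from the other arrays of their group for 15 of 189 groups of values tested, where chance flags about 1 in 20 (9.4 here). Untreated Ire1 ko, with 3 arrays, was too small for this check and was left out of it. In replicate 1 of Xbp1 ko this held for 6 acute phase genes, Saa2 (3220), Saa1 (2811), Lcn2 (620), Orm2 (310), Hp (3931) and Crp (1644). Agt was high in replicate 2 of Xbp1 ko (1027) and Afm in replicate 3 (332). On arrays labelled IRE1 siRNA, Fetub was high in replicate 3 (2022) and Saa1 in replicate 2 (734). Serpina3n stood apart in replicate 3 labelled luciferase siRNA (424). Trf in replicate 2 (5711) and Cp in replicate 1 (2566) stood apart in Ire1 ko given tunicamycin, Azgp1 in replicate 3 of WT given tunicamycin (3041), and Agt in replicate 1 of untreated WT (1054).

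The response to tunicamycin differed between Ire1 ko and WT for Crp, by 1.08 on the log2 scale, and for Azgp1, by 0.31, both by the interaction term in limma.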

How the results depend on the processing

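Of 39 member results, 21 kept their call and direction under every alternative run. The count of members higher in Xbp1 ko was 1 in place of 0 with an intensity filter of 16 or a common median. Higher calls under tunicamycin in WT were 1 in place of 2 with no filter, and lower calls there were 14 in place of 11 with a common median, Afp, Hp and Itih3 being added. Hp was called lower on arrays labelled IRE1 siRNA with an intensity filter of 16 (adjusted p = 0.0262) or a common median (adjusted p = 0.011). In Ire1 ko they were 1 with a common median and 2 without the intensity trend, in place of 4, and lower calls were 8 with a common median and 5 in 1 fit over all arrays, in place of 3. Interaction calls were 1 in place of 2 with a common median or without the trend, and Agt was added with an intensity filter of 16 or in 1 fit over all arrays. The cause was not tested. Leaving out 1 array at a time gave 0 to 0 higher and 3 to 5 lower for Xbp1 ko, 0 to 1 higher and 5 to 6 lower on arrays labelled IRE1 siRNA, 0 to 0 in both directions for untreated Ire1 ko, 2 to 5 higher and 2 to 6 lower under tunicamycin in Ire1 ko, 1 to 2 and 8 to 11 in WT, 4 to 4 and 0 to 0 for Ire1 ko against WT under tunicamycin, and 2 to 4 and 0 to 0 for the interaction. Lcn2 in Xbp1 ko ranged from -0.15 (without replicate 1 of Xbp1 ko) to 1.79 (without replicate 2).

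With the replicate number as a block, 0 members in place of 5 were called lower on arrays labelled IRE1 siRNA, while Afm stayed at -1.43 (adjusted p = 0.0751). Same-number correlations of deviations were -0.154 to 0.059 in that experiment, which does not settle whether the numbers pair samples. The block takes up degrees of freedom. The number of arrays, 3 or 4 in a group, and a table floor of 3 limit what can be seen of weak or variable genes.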
